A study of Mus musculus with 8 samples.

Results

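Fpr1, Fpr2, Ltb4r1, Ptafr and S1pr4 encode 5 chemoattractant receptors that do not bind chemokines: 2 formyl peptide receptors and 3 receptors for lipid mediators. They were chosen by symbol, with no measured value in the rule but with earlier results of these data known. They are 5 of the 55414 genes counted. All 5 were among the 16778 genes that passed the filter on low counts and were tested. RNA-seq had been done on splenic neutrophils, 1 library per mouse, of 4 WT and 4 Cxcr2-/- animals, all on the FVB strain, aged 10 weeks and housed under SOPF (specific and opportunistic pathogen free) conditions. The cells had been enriched on CD11b and then sorted as CD45+ CD11b+ Ly6G+ F4/80-, with no further treatment. The deletion is germline, so Cxcr2 was missing from every cell type of the Cxcr2-/- animals and not from neutrophils alone. The comparison asks how the RNA of these other attractant receptors stood in splenic neutrophils that lacked the chemokine receptor Cxcr2.

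All 5 are membrane-spanning receptors that signal through heterotrimeric G proteins, mainly of the Gi class, as Cxcr2 does. The products of Fpr1 and Fpr2 bind peptides that begin with formylated methionine, which are released by bacteria and by damaged mitochondria, and the Fpr2 product also binds host ligands such as annexin A1, cathelicidin and serum amyloid A. Ltb4r1 encodes BLT1, the high-affinity receptor for leukotriene B4, Ptafr the receptor for platelet-activating factor (PAF), and S1pr4 a receptor for sphingosine 1-phosphate found mainly on blood cells. Neutrophils use formyl peptides as end-point attractants near bacteria, and leukotriene B4 as a signal that neutrophils relay to each other during swarming.

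The depth was 34220182 to 46233555 counts per WT library and 37549648 to 43789253 per Cxcr2-/- library, and each of the 5 receptors rested on at least 3660 counts in every library. Cxcr2 RNA was 1956 ± 221 CPM (counts scaled to library size; mean ± SD, n = 4) in WT and 17.1 ± 3.46 in Cxcr2-/- (log2 fold change -6.84, edgeR adjusted p = 3.5e-10), the direction that the labels give. Of all genes tested, 23.7% were higher and 21.0% were lower in Cxcr2-/- at an adjusted p under 0.05 in edgeR's quasi-likelihood test, so a call for a single gene is common in this comparison. With upper-quartile scaling, the median log2 fold change over all genes moved from 0.01 to -0.11, and the share of calls that were higher from 53.0% to 41.2%. The groups also differed in maturity markers. Early granulocyte genes (Elane, Mpo, Prtn3, Ctsg and Ms4a3) summed to 4.37 to 17.3 CPM in WT and 70.5 to 386 CPM in Cxcr2-/-, and cycling genes (Mki67, Top2a, Cdk1, Ccnb1 and Birc5) to 262 to 312 and 829 to 930.5 CPM. All 5 genes of each list were higher. Fewer cells of a type and less RNA per cell cannot be told apart in such bulk samples, and the part of cell maturity in the results that follow was not tested.

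Of the 5 receptors, 4 were higher in Cxcr2-/- neutrophils (Fpr1, Fpr2, Ltb4r1 and S1pr4) and 1 was lower (Ptafr), beside a background of 23.7% and 21.0% of genes. Requiring also a 1.5-fold change left Fpr2, Ltb4r1 and S1pr4 higher and Ptafr lower, where 15.7% of genes passed as higher and 15.7% as lower. In none of the 5 did the 4 WT and 4 Cxcr2-/- values overlap, a separation seen upward in 22.5% and downward in 19.1% of all genes. The median log2 fold change of the 5 was 0.93, and that of all genes tested was 0.01.

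**Figure D1:**
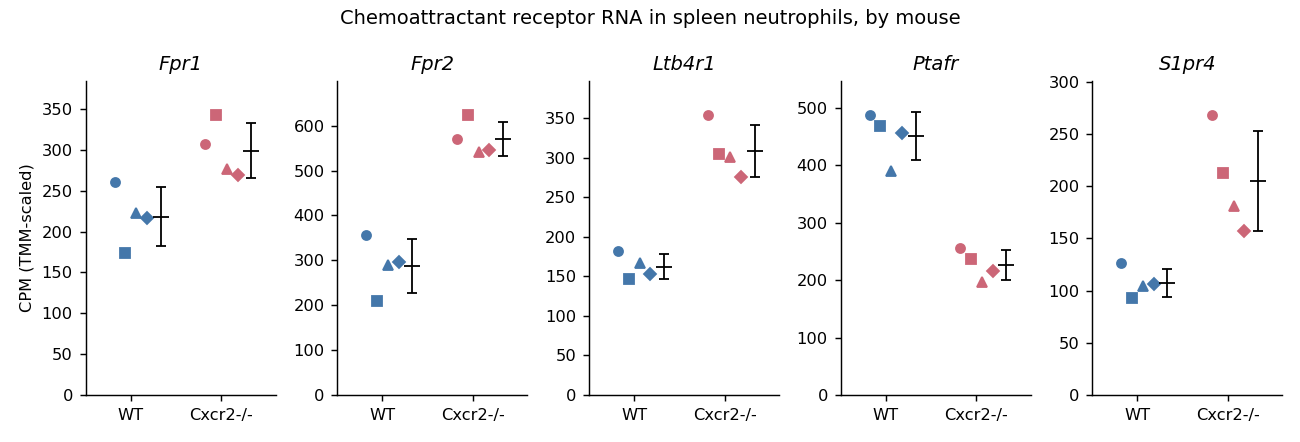
RNA level of each receptor in every mouse, in CPM on the y axis, for WT and Cxcr2-/- neutrophils; each point is 1 mouse, its shape the replicate number, and the bar and whiskers are the mean and SD of 4. The groups do not overlap in any panel, and only Ptafr is lower in Cxcr2-/-.

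Fpr1 and Fpr2 lie head to head on chromosome 17. Fpr1 (ENSMUSG00000045551, chr17:17876471-17883940, minus strand, mm10) and Fpr2 (ENSMUSG00000052270, chr17:17887824-17893952, plus strand) are transcribed away from each other from start sites 3884 bases apart, and each has its exons in 2 blocks. The windows from 250 bases before to 50 after each start are shown for these neighbours, which changed to a different extent, and for Ltb4r1 and Ptafr, which changed in opposite directions. Their sequences are from RefSeq (GRCm38.p6), at chr17:17883890-17884189 (minus strand), chr17:17887574-17887873 (plus), chr14:55765712-55766011 (plus) and chr4:132563817-132564116 (plus). Capitals mark matches to motifs searched on both strands: GAGGAA, bound by ETS factors such as PU.1 (TTCCTC on the other strand), TTNNGNAA, a loose form of the C/EBP site, and TTCNNNGAA, the GAS element of STAT factors.
Fpr1: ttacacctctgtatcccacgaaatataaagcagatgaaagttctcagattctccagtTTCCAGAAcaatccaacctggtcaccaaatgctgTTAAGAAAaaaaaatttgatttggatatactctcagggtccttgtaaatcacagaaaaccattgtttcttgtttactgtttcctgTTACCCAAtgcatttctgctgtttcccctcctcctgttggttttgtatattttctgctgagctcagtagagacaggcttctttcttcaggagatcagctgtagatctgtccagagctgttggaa
Fpr2: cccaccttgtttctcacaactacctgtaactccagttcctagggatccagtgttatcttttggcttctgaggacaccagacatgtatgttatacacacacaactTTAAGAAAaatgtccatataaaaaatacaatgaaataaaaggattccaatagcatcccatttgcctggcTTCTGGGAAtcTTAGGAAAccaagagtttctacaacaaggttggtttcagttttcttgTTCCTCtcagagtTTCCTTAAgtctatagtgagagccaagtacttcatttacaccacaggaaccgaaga
Ltb4r1: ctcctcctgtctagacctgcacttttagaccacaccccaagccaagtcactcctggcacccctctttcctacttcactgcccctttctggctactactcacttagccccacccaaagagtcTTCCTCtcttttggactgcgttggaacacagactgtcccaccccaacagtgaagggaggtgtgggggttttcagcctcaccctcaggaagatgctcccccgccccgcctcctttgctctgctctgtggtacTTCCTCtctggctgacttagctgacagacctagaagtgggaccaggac
Ptafr: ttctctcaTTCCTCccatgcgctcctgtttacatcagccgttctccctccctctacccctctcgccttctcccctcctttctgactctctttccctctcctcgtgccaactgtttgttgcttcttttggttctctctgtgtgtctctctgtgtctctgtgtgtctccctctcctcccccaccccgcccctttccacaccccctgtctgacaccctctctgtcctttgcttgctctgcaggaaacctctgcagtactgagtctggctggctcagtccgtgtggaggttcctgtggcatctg

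The Fpr1 window held 3 matches to TTNNGNAA, first bases at -193, -159 and -74 from the start, and none to GAGGAA. The Fpr2 window held 3 matches to TTNNGNAA, at -146, -66 and -6, together with 1 GAGGAA at -19 and 1 TTCNNNGAA at -77. Ltb4r1 had GAGGAA at -129 and at 3 bases past the start, and Ptafr had it at -242 only. The window of S1pr4 (chr10:81500088-81500387, minus strand) matched none of these motifs. No match overlapped another. Neither TGANTCA (AP-1) nor TGACG (the CRE core) was found in any of the 5 windows. Of all 32851 promoter windows of this length, the share with at least 1 match was 28.3% for GAGGAA, 40.7% for TTNNGNAA, 8.30% for TTCNNNGAA, 7.81% for TGANTCA and 20.8% for TGACG. The GC content was 40.0% for Fpr1, 39.3% for Fpr2 and 41.0% for S1pr4, and 56.3% for both Ltb4r1 and Ptafr, beside a median of 52.7%.

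Fpr2 had the highest log2 fold change of the 5 receptors. It measured 357, 209.7, 289 and 296 CPM in the WT mice and 570, 625, 542 and 545 CPM in the Cxcr2-/- mice. The highest WT value lay well under the lowest Cxcr2-/- value, and WT 2 was the lowest of all. The means were 288 ± 60.4 and 570.5 ± 38.3 CPM (SD, n = 4), a log2 fold change of 0.99 (SE 0.14, 95% interval 0.68 to 1.29, edgeR adjusted p = 0.00012), or 1.98-fold. The annotation places Fpr3, another member of the family, over exons of Fpr2 on the same strand, with identical stretches of up to 94 bases between their transcripts. Reads there may not have been assigned to either gene. Fpr3 was at most 0.304 CPM in any library. That value cannot show how many Fpr2 reads were lost, since a lost read counts for neither gene, and the loss was not measured.

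Fpr1, the high-affinity formyl peptide receptor, rose less. Its values were 261, 173, 222 and 216.5 CPM in WT and 307, 343, 277 and 269 CPM in Cxcr2-/-. The groups came close, since WT 1 lay just under the lowest Cxcr2-/- mouse. The means of 218 ± 35.9 and 299 ± 33.6 CPM gave a log2 fold change of 0.45 (SE 0.13, 95% interval 0.18 to 0.73, edgeR adjusted p = 0.0116), or 1.37-fold. Fpr1 and Fpr2 transcripts share identical stretches of up to 50 bases.

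Ltb4r1, the receptor for leukotriene B4 (ENSMUSG00000046908, chr14:55765962-55768494, plus strand), measured 182, 147, 167 and 153 CPM in WT and 355, 305, 301 and 276 CPM in Cxcr2-/-. Every Cxcr2-/- mouse was far above every WT mouse. The means were 162 ± 15.7 and 309 ± 32.8 CPM, a log2 fold change of 0.93 (SE 0.11, 95% interval 0.70 to 1.16, edgeR adjusted p = 2.17e-05). Its low-affinity relative Ltb4r2, whose product binds other fatty acid derivatives better, lies 823 bases away and measured only 1.86 ± 0.411 and 1.09 ± 0.325 CPM.

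S1pr4 (ENSMUSG00000044199, chr10:81497747-81500132, minus strand, 1 exon block) measured 126, 92.9, 104 and 106 CPM in WT and 269, 212, 181 and 157 CPM in Cxcr2-/-. The Cxcr2-/- values spread more than those of any other of the 5 receptors in that group, with a coefficient of variation of 23.4%. The means were 107 ± 13.8 and 205 ± 48.0 CPM, a log2 fold change of 0.93 (SE 0.15, 95% interval 0.60 to 1.27, edgeR adjusted p = 0.00034). Lymphocytes express S1pr4 as well. Of the B cell markers Cd79a, Cd79b, Ms4a1 and Pax5, 3 of 4 were lower in Cxcr2-/- and none was higher, and they summed to 17.1 to 46.9 CPM in WT and 11.3 to 21.3 in Cxcr2-/-. The T cell list (Cd3d, Cd3e, Cd3g, Cd2 and Lck) summed to 83.6 to 114 and 89.2 to 137 CPM, with 1 of 4 tested genes lower and none higher. Cd3d gave nearly all of that sum (80.1 to 136 CPM over the 8 libraries), and Cd3e, Cd3g, Cd2 and Lck were each at most 1.503 CPM in any library. No gene of these lists was at 0 in every library, and the part of lymphocyte RNA in S1pr4 was not tested. In the fit with a covariate for RNA of other cell types, all 5 receptors kept their direction and their call, as they did under each scaling. The covariate is 1 mean of log2 (CPM + 1) per library over pooled markers of other cells. It was 1.47 to 2.01 in WT and 1.27 to 1.92 in Cxcr2-/-, with overlapping groups. A pooled mean cannot set apart the RNA of lymphocytes or of macrophages, so this fit does not decide their part.

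Ptafr, the PAF receptor (ENSMUSG00000056529, chr4:132564067-132582683, plus strand), went the other way. It measured 488, 468, 390 and 457 CPM in WT and 256, 237, 196 and 216 CPM in Cxcr2-/-. The lowest WT mouse was well above the highest Cxcr2-/- mouse. The means were 451 ± 42.5 and 226 ± 25.7 CPM, a log2 fold change of -0.996 (SE 0.11, 95% interval -1.24 to -0.76, edgeR adjusted p = 1.75e-05), or 1.99-fold lower. Macrophages and monocytes also express Ptafr. Their list (Adgre1, Csf1r, C1qa, C1qb, C1qc, Cd5l and Vcam1) summed to 442 to 540 CPM in WT and 201 to 296 in Cxcr2-/-, with 2 of 7 genes lower: Adgre1, which encodes the F4/80 antigen used to gate cells out, and Csf1r, which gave most of the sum. Csf1r alone was at 442 ± 41.1 CPM in WT and 232 ± 42.1 in Cxcr2-/-. C1qa, C1qb, C1qc and Cd5l were each at most 6.39 CPM in any library and Vcam1 at most 22.2, and none of these passed. No gene of the list was at 0 in every library, and its part in the Ptafr result was not tested.

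**Figure D2:**
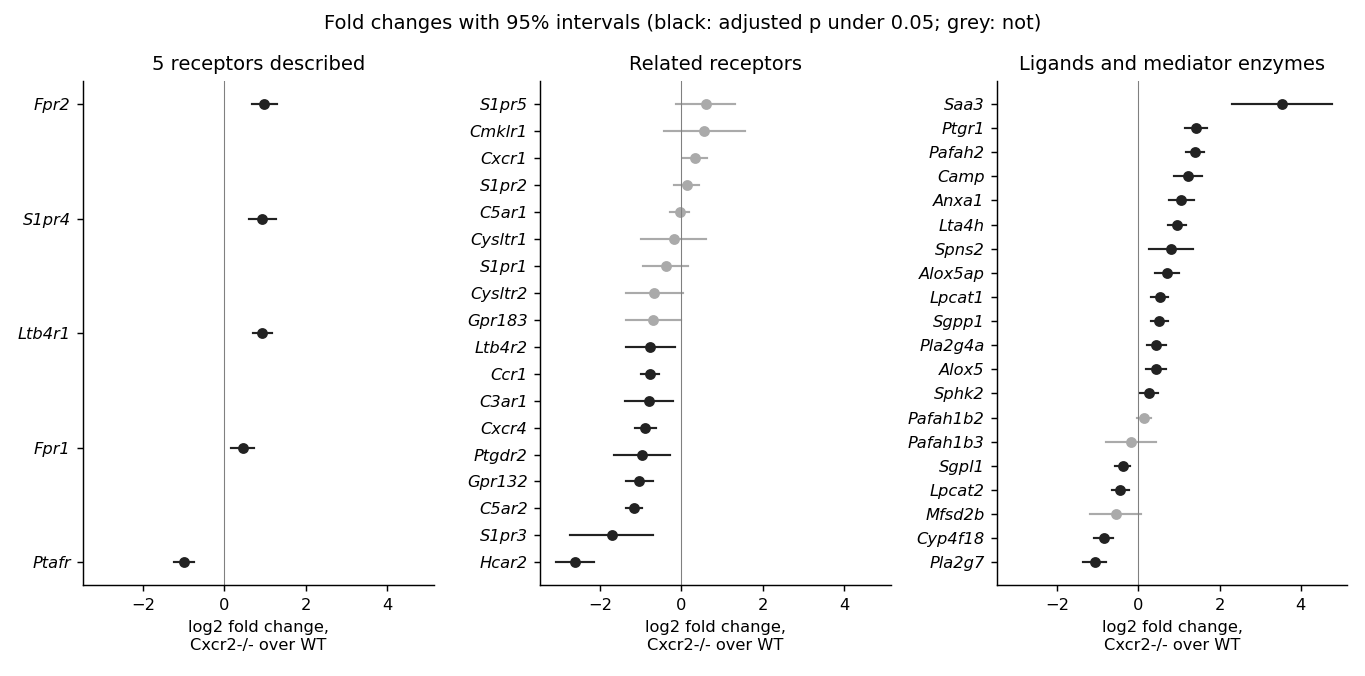
Log2 fold change (Cxcr2-/- over WT) on the x axis of the 5 receptors and of other genes of their pathways, with 95% intervals from edgeR. Fpr2, Ltb4r1 and S1pr4 lie near 0.9 to 1.0, Fpr1 at 0.45 and Ptafr at -0.996.

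Whether the receptors changed to a different extent was tested on the ratio of counts within each library, which does not depend on how libraries are scaled. Of the 10 pairs, 7 had ratios that did not overlap between the groups (exact permutation test, two-sided, p = 0.0286, the smallest that 4 against 4 mice can give; adjusted over the 10 pairs, 0.0408). The 7 were the pairs with Ptafr and those of Fpr1 with Fpr2, Ltb4r1 and S1pr4, so they share genes and are not 7 separate results. The share of such pairs among all genes was not computed. The log2 ratio of Fpr1 to Fpr2 was -0.45, -0.27, -0.38 and -0.45 in WT and -0.90, -0.86, -0.97 and -1.02 in Cxcr2-/-. Fpr2 was therefore above Fpr1 in all 8 mice, by a wider margin in Cxcr2-/- (difference -0.55, 95% interval -0.74 to -0.42). Fpr1 likewise rose less than Ltb4r1 (-0.47, interval -0.72 to -0.07) and S1pr4 (-0.45, interval -0.90 to -0.13). All 4 ratios with Ptafr shifted. The single-gene values had already fixed this, since Ptafr and the other receptors moved in opposite directions without overlap. These 4 tests therefore add nothing to the single-gene results. The widest shift was in that of Fpr2 to Ptafr, whose mean log2 ratio differed by 2.01 between the groups (interval 1.6 to 2.62).

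No difference in extent was detected among Fpr2, Ltb4r1 and S1pr4. The log2 ratio of Fpr2 to Ltb4r1 differed by 0.08 between the groups (interval -0.28 to 0.52; exact permutation p = 0.571, adjusted 0.667), that of Fpr2 to S1pr4 by 0.10 (interval -0.41 to 0.61; exact permutation p = 0.6, adjusted 0.667), and that of Ltb4r1 to S1pr4 by 0.01 (interval -0.28 to 0.28; exact permutation p = 0.914, adjusted 0.914). The intervals leave room for unequal changes of up to 0.28 to 0.61 on the log2 scale.

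**Figure D3:**
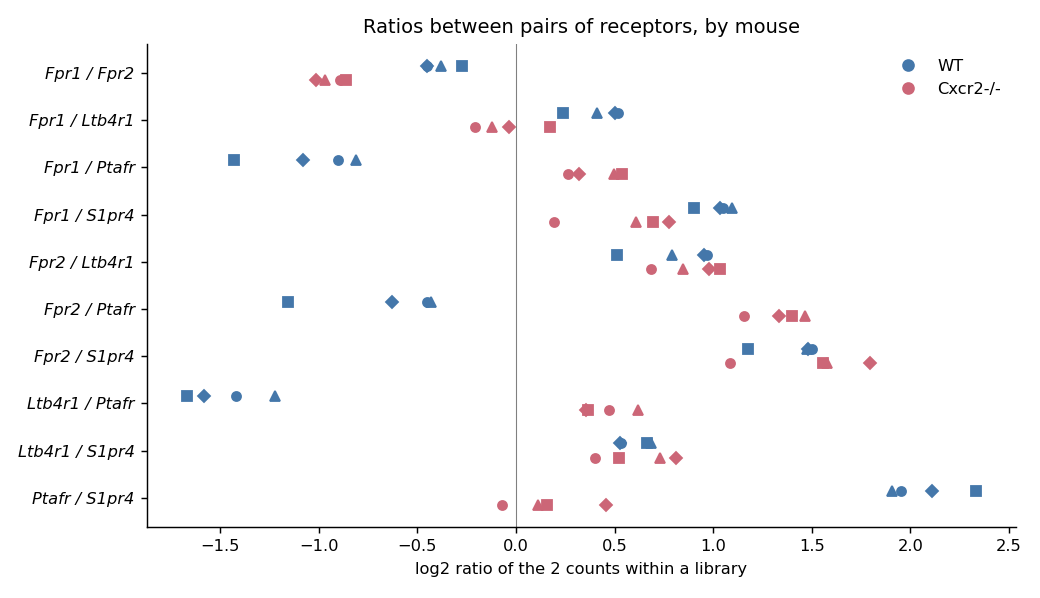
Log2 ratio of the counts of 2 receptors within each library on the x axis, 1 line per pair; each point is 1 mouse and its shape the replicate number. The groups separate in 7 of the 10 pairs, most widely in those with Ptafr.

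The receptors' levels were then compared per kilobase of annotated exon (CPM per kb). In WT the order was Fpr2 (222 ± 46.6), Fpr1 (165 ± 27.1), Ptafr (124 ± 11.7), Ltb4r1 (116 ± 11.3) and S1pr4 (44.9 ± 5.78), all in CPM per kb. Ranges of neighbours in this order overlapped except those of Ltb4r1 and S1pr4. In Cxcr2-/- the order was Fpr2 (440 ± 29.5), Fpr1 (226 ± 25.4), Ltb4r1 (222 ± 23.6), S1pr4 (85.9 ± 20.1) and Ptafr (62.2 ± 7.07). Here Fpr2 stood clear of Fpr1, Fpr1 and Ltb4r1 overlapped, and Ptafr, above Ltb4r1 in 3 of 4 WT mice, was below S1pr4 in each of the 4 mice although the ranges of the pair overlapped. Ptafr made up 18.7% ± 2.92 of the summed level of the 5 receptors in WT and 6.0% ± 0.374 in Cxcr2-/-, and Fpr2 went from 32.8% to 42.6%.

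The summed level of the 5 receptors was 672 ± 91.9 CPM per kb in WT (566 to 790) and 1036 ± 87.8 in Cxcr2-/- (948 to 1114). Cxcr2 itself was at 642 ± 72.4 CPM per kb in WT, close to that sum, and at 5.60 ± 1.13 in Cxcr2-/-. With Cxcr2 counted in, the sum was 1314 ± 164 (1130 to 1529) in WT and 1042 ± 88.9 (952 to 1120) in Cxcr2-/-. These sums are RNA levels and were not tested.

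**Figure D4:**
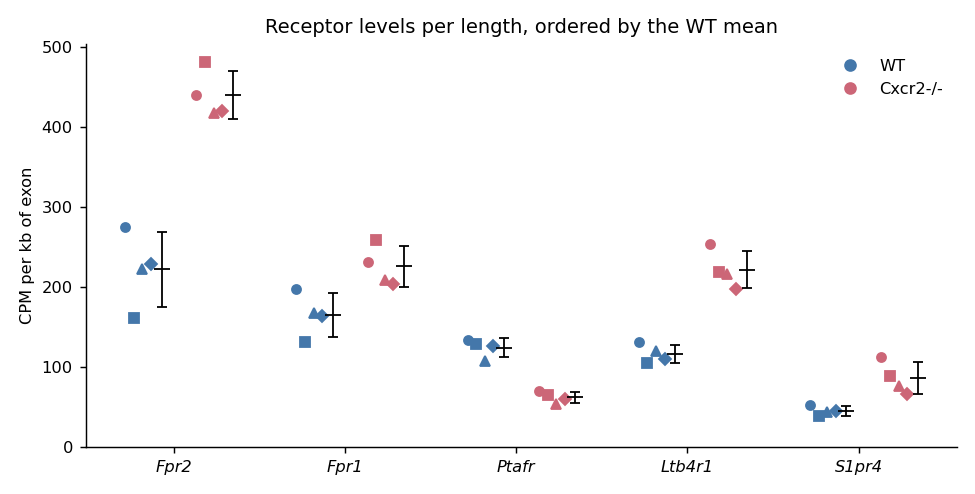
Level of the 5 receptors per kilobase of exon (CPM per kb, y axis) in WT and Cxcr2-/- neutrophils; points are mice, and bars and whiskers are the mean and SD of 4. Fpr2 is first in both groups, and Ptafr is last by mean in Cxcr2-/-, with a range that overlaps that of S1pr4.

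The genes with the most similar profile were taken from 4103 protein-coding genes, by Pearson's r of log2 (CPM + 1) over the 8 libraries. As the 2 groups stand apart for every receptor, r mixes the group difference with the variation within groups. It is therefore given also after each group's mean was subtracted. Closest to Fpr1 were Cd24a (r = 0.985, within groups 0.983), which encodes a surface glycoprotein, the Arp2/3 subunit gene Arpc5 (0.985, 0.976) and Lins1 (0.984, 0.972). Among the closest to Fpr2 were the mitochondrial outer membrane genes Vdac2 (0.995, 0.967) and Tomm22 (0.995, 0.968). Ltb4r1 ran with the deubiquitinase gene Usp5 (0.997, 0.951) and the genes of sugar metabolism Pgls (0.997, 0.951) and Ldha (0.997, 0.947). Ptafr ran with Nat8l (0.997, 0.961), the chemokine receptor gene Cxcr4 (0.996, 0.967) and Ndrg1 (0.995, 0.925). S1pr4 ran with the actin regulator gene Vasp (0.997, 0.984) and the phosphatase gene Ppm1m (0.996, 0.982). These values share libraries and depth with the receptors and are descriptions only.

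Related receptors were lower or did not pass the test. Of 23 listed, 18 were tested: 9 were lower (background 21.0%), none was higher (background 23.7%) and 9 did not pass, with a median log2 fold change of -0.72. At an unadjusted p under 0.05 in edgeR 1 was higher, and in DESeq2 the adjusted count was 0. Hcar2, the receptor for nicotinic acid and ketone bodies, went from 333 ± 31.1 to 54.4 ± 19.0 CPM (log2 fold change -2.61, edgeR adjusted p = 1.43e-06), the largest fall of the list. C5ar2, the second receptor for complement C5a, was at 214 ± 14.5 and 95.7 ± 7.48 CPM (-1.16, edgeR adjusted p = 1.32e-06). C5ar1, the signalling C5a receptor and an end-point receptor like those for formyl peptides, was at 625 ± 58.0 and 609 ± 56.6 CPM (-0.04, 95% interval -0.27 to 0.20, edgeR adjusted p = 0.812). The groups overlapped for C5ar1, and its interval excludes a change of the size seen in Fpr2.

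The chemokine receptors of the list that are well expressed were lower. Cxcr4, which holds neutrophils in bone marrow, was at 646 ± 76.3 CPM in WT and 351 ± 39.0 in Cxcr2-/- (-0.88, edgeR adjusted p = 7.02e-05). This is RNA, and the paper's flow cytometry went the other way, with a higher percentage of Cxcr4+ cells among splenic neutrophils of Cxcr2-/- mice. Ccr1, a receptor for inflammatory chemokines, was at 908 ± 68.2 and 532 ± 39.6 CPM (-0.77, edgeR adjusted p = 6.42e-05). Cxcr1, the nearest relative of Cxcr2, was at 14.8 ± 2.03 and 18.8 ± 2.74 CPM and narrowly missed the threshold (0.35, edgeR adjusted p = 0.0522). Gpr132, a receptor for oxidized fatty acids, fell by 1.03 on the log2 scale (edgeR adjusted p = 0.000158). Among the relatives of S1pr4, S1pr2 was at 19.2 ± 3.07 and 21.1 ± 2.997 CPM (0.13, edgeR adjusted p = 0.461), and S1pr3 fell from 1.69 to 0.511 CPM (-1.71, edgeR adjusted p = 0.0105). Ltb4r2 (-0.76, edgeR adjusted p = 0.04), Ptgdr2, the prostaglandin D2 receptor (-0.96, 0.0248), and C3ar1, the C3a receptor (-0.79, 0.0321), were all under 3 CPM and also lower, and each lost its call in 5 to 7 of 16 alternatives. The family genes Fpr-rs3, Fpr-rs6 and Fpr-rs7 had no count in any library, and Fpr-rs4 and Fpr3 were too low to test.

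Of 22 genes for ligands and for the making and breakdown of the mediators, 20 were tested: 13 were higher (background 23.7%), 4 were lower (background 21.0%) and 3 did not pass, with a median log2 fold change of 0.49. Protein ligands of Fpr2 were higher. Anxa1, which encodes annexin A1, was at 3501 ± 447 CPM in WT and 7320 ± 994 in Cxcr2-/- (1.06, edgeR adjusted p = 6.67e-05), and Camp, which encodes the cathelicidin stored in specific granules, at 2589 ± 390 and 6065 ± 1106 (1.23, edgeR adjusted p = 5.72e-05). Saa3, for a serum amyloid A protein, was scarce, at 0.514 ± 0.246 and 5.90 ± 4.73 CPM (3.53, edgeR adjusted p = 0.000282).

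The enzymes that make leukotriene B4 were higher and 1 that inactivates it was lower. Alox5, which starts the pathway, was at 408 ± 34.6 and 552 ± 67.8 CPM (0.44, edgeR adjusted p = 0.00702), its activating protein Alox5ap at 304 ± 51.2 and 498 ± 56.7 (0.71, edgeR adjusted p = 0.000875), and Lta4h, which completes leukotriene B4, at 219 ± 10.9 and 424 ± 42.0 (0.96, edgeR adjusted p = 9.22e-06). Pla2g4a, which frees the arachidonic acid that feeds the pathway, rose by 0.45 on the log2 scale (edgeR adjusted p = 0.00606). Cyp4f18, the neutrophil enzyme that inactivates leukotriene B4 by hydroxylation, was at 525 ± 66.5 and 292 ± 14.9 CPM (-0.85, edgeR adjusted p = 5.26e-05). Ptgr1, which also inactivates leukotriene B4, moved the other way, from 6.80 ± 0.754 to 18.3 ± 1.73 CPM (1.43, edgeR adjusted p = 2.79e-06).

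The enzymes of PAF were split. Lpcat2, which acetylates lyso-PAF to PAF, was at 285 ± 26.1 and 210 ± 12.0 CPM (-0.44, edgeR adjusted p = 0.00261), and Lpcat1 at 39.8 ± 2.91 and 57.6 ± 5.88 (0.53, edgeR adjusted p = 0.00073). Among the acetylhydrolases, which break PAF down, the secreted Pla2g7 was at 903 ± 125 and 430 ± 64.1 CPM (-1.07, edgeR adjusted p = 4.01e-05), and the intracellular Pafah2 at 8.25 ± 0.279 and 21.7 ± 1.19 (1.40, edgeR adjusted p = 5.77e-07). Pafah1b2, the most abundant gene of the list that did not pass, was at 42.8 ± 1.07 and 47.4 ± 2.33 CPM (0.15, 95% interval -0.02 to 0.32, edgeR adjusted p = 0.151). For sphingosine 1-phosphate, the lyase Sgpl1 was lower (167 ± 13.9 and 128 ± 2.24 CPM, -0.38, edgeR adjusted p = 0.00343) and the phosphatase Sgpp1 higher (28.7 ± 2.47 and 41.3 ± 3.796 CPM, 0.52, edgeR adjusted p = 0.000945). The kinase Sphk2 was just past the threshold (0.26, edgeR adjusted p = 0.0498), and lost its call in 12 of 16 alternative analyses. The exporter Spns2, near 1 to 2 CPM, was higher (0.81, edgeR adjusted p = 0.0202), and lost its call in 4.

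Downstream of the receptors, 26 G protein and effector genes were tested: 9 were higher (background 23.7%), 5 were lower (background 21.0%) and 12 did not pass, with a median log2 fold change of 0.12. Over the alternatives the number higher went down to 6, a share near the background; Gnb2 and Gng5 (higher) each lost their call in 12 of 16 and Gng2 (lower) in 10. The largest rises were in Gna15, an alpha subunit of the Gq class that accepts many receptors (21.0 ± 0.824 and 46.4 ± 13.2 CPM, 1.14, edgeR adjusted p = 0.000102), and Plcb3, a phospholipase C beta (29.1 ± 3.24 and 51.1 ± 8.15 CPM, 0.81, edgeR adjusted p = 0.000187). The main Gi alpha gene of neutrophils, Gnai2, was at 1347 ± 201 and 1802 ± 283 CPM (0.42, edgeR adjusted p = 0.0286), with overlapping groups and a call lost in 7 of 16 alternatives. Gnai3 (0.46, edgeR adjusted p = 0.0033), the beta subunit gene Gnb1 (0.56, 0.000892), Plcb2 (0.44, 0.0102) and Rac2, the GTPase that drives actin and the oxidase (0.65, 0.002), were higher as well.

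Genes of the PI3K gamma branch were lower or did not pass. Pik3cg, its catalytic subunit, was at 472 ± 34.4 and 367 ± 28.7 CPM (-0.36, edgeR adjusted p = 0.00943), its adaptor Pik3r5 at 475 ± 48.4 and 306 ± 40.7 (-0.64, edgeR adjusted p = 0.000764), and the Rac exchange factor Prex1, which responds to beta-gamma subunits and to the lipid that PI3K makes, at 923 ± 145 and 604 ± 100.3 (-0.61, edgeR adjusted p = 0.00423). The groups overlapped for Prex1. Pik3r6, the other adaptor, was at 130.1 ± 14.1 and 115 ± 17.7 CPM (-0.18, edgeR adjusted p = 0.238). Gnaq was lower (-0.44, edgeR adjusted p = 0.00255). Dock2, a Rac exchange factor, was at 765 ± 55.4 and 672 ± 51.9 CPM (-0.19, 95% interval -0.41 to 0.03, edgeR adjusted p = 0.155).

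Of 13 genes that switch receptors or their G proteins off, 12 were tested: 3 were higher (background 23.7%), 5 were lower (background 21.0%) and 4 did not pass, with a median log2 fold change of -0.28. Rgs2, which speeds the turn-off of Gq, was at 1479.9 ± 229 and 551 ± 79.5 CPM (-1.43, edgeR adjusted p = 6.67e-06). Rgs1 was at 42.2 ± 25.7 and 11.4 ± 9.37 CPM (-1.89, edgeR adjusted p = 0.013), with overlapping groups, while Rgs19 was at 176 ± 22.6 and 275 ± 41.6 (0.65, edgeR adjusted p = 0.00119). The arrestins, which uncouple phosphorylated receptors, parted: Arrb1 was at 279 ± 42.3 and 182 ± 26.4 CPM (-0.62, edgeR adjusted p = 0.00213) and Arrb2 at 509 ± 59.1 and 776 ± 174 (0.61, edgeR adjusted p = 0.00603). Of the receptor kinases, Grk5 was lower (81.3 ± 8.59 and 41.8 ± 2.71 CPM, -0.96, edgeR adjusted p = 7.38e-06). Grk6 was higher (369 ± 38.4 and 491 ± 105 CPM, 0.41, edgeR adjusted p = 0.0341), with overlapping groups and a call lost in 8 of 16 alternatives. Grk2, the most abundant, was at 1013 ± 111 and 900.5 ± 149.8 CPM (-0.17, 95% interval -0.45 to 0.12, edgeR adjusted p = 0.323).

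The neutrophil and gate markers were high in both groups. The 9 genes Ptprc, Itgam, Ly6g, S100a8, S100a9, Csf3r, Mmp8, Mmp9 and Retnlg summed to 35476 to 49360 CPM in WT and 70303 to 84021 in Cxcr2-/-. Most of each sum came from S100a8 (12054 ± 2500 and 28418.5 ± 1267 CPM) and S100a9 (13530 ± 2584 and 33865 ± 5454 CPM), so the sums mainly follow these genes. Of the 9 genes, 6 were higher (background 23.7%) and 2, Ptprc (CD45) and Csf3r, lower (background 21.0%). The receptors that rose did so beside a rise of most neutrophil genes of this list, and a link between them was not tested. Itgam (CD11b) did not pass. NK cell, dendritic cell, platelet and erythroid lists summed to at most 24.4 CPM in any library and the eosinophil list to 37.8 to 69.2 CPM.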

How the data were processed

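RNA-seq was done on sorted splenic neutrophils of 4 WT and 4 Cxcr2-/- mice. The deposited files hold raw read counts per gene for each library, which the authors made after rRNA depletion, directional library preparation, trimming, alignment with STAR to mm10 and counting with HTSeq. Per the labels, FastQC and HTSeq were used. Versions, the strand setting, the counting mode and the annotation release are not given in the sources used here. The 5 HTSeq summary lines were left out of the tests. Reads assigned to no feature were 31.4 to 41.5% of the total in WT and 26.7 to 31.9% in Cxcr2-/-. That total holds the gene counts and the summary lines together.

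The receptors, pathway lists and tests were chosen with earlier results of these data known. Counts were tested with edgeR 4.0.16 (R 4.3.3) by its quasi-likelihood test with TMM scaling, filterByExpr and Benjamini-Hochberg adjustment over 16778 genes, all 8 libraries entering the fit and genotype as the only term. A gene passed at an adjusted p under 0.05. CPM are TMM-scaled. Standard errors and 95% intervals come from the same fit. Ratios between receptors were tested with an exact two-sided permutation test (scipy 1.17.1), and their intervals hold the shifts that the test does not reject at 0.05. Exon lengths and positions are from GENCODE M21 (mm10), in which 52081 of 55414 identifiers had an entry and 35 the same version, so the counted models may differ. Promoters are from RefSeq, matched for all 5 receptors. The code was tested on simulated data.

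For each list, the up to 2 largest changes each way among genes past the test with a mean log2 CPM of at least 3, and the most abundant gene that did not pass, were to be named; other list genes and the neighbours of the receptors were named after their values were seen. The genes of similar profile were those with a mean log2 CPM of at least 5. A few genes of the lists and of similar profile are not reported here. Alternatives were DESeq2 1.42.0, other scalings and filters, a block for the replicate number, a covariate made of markers of other cells, and leaving out each library. No labels tie equal replicate numbers to 1 litter or day, and mice count as separate animals. The authors' sources do not say how mice were split into preparation batches.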

Additional observations from a re-analysis of the deposited data

Results flagged for a closer look

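Among 118 gene and group combinations of 4 mice examined, 3 held a mouse whose gap to its nearest neighbour exceeded Dixon's 95% critical value as a share of the group's range, where chance gives about 1 in 20. None was one of the 5 receptors. Ptgr1, which inactivates leukotriene B4, was 5.67 CPM in WT 2 and 7.11 to 7.21 in the other WT mice. Pik3r5, the PI3K gamma adaptor, was 366 CPM in Cxcr2-/- 1 and 281 to 290.4 in the other Cxcr2-/- mice. Ncln, the gene next to S1pr4, was 90.0 CPM in WT 1 and 75.3 to 77.6 in the other WT mice.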

How the results depend on the processing

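The 5 receptors kept their direction and their call in all 16 alternatives. Leaving out 1 library gave log2 fold changes of 0.33 to 0.55 for Fpr1, 0.84 to 1.11 for Fpr2, 0.86 to 0.99 for Ltb4r1, -1.08 to -0.94 for Ptafr and 0.78 to 1.02 for S1pr4. The Fpr1 log2 fold change came nearest the threshold, with an edgeR adjusted p of 0.0461 under upper-quartile scaling and 0.0449 without WT 2. Same-numbered mice did not deviate together (correlations of 0.15, -0.19, 0.24 and -0.31), and with the replicate number as a block Fpr1 was at 0.46 (edgeR adjusted p = 0.0199) and the Fpr2 log2 fold change was 1.01. Of the 48 calls in the 4 pathway lists, 38 held in all alternatives that gave a value and 10 were lost in at least 1, with no change of sign. S1pr3 gave no value where each library had to hold 10 counts. The count of related receptors that were higher went from 0 to 2 with the covariate for RNA of other cells (Cmklr1 and Cxcr1), and ranged from 0 to 2 on leaving out a library: 2 without WT 1 (S1pr5 and Cxcr1) and 1 without Cxcr2-/- 1 (Cxcr1); the cause was not tested. The C5ar1 log2 fold change, not called in any alternative, ranged from -0.12 to 0.0145 on leaving out a library, with the sign turned without WT 1 (0.0145) and without Cxcr2-/- 2 (0.00984). Dock2 and Pik3r6 passed as lower under upper-quartile or total-count scaling. Pik3r6 also passed as lower with the covariate for RNA of other cells (-0.30, edgeR adjusted p = 0.0317). With 3 against 4 mice the exact test of a ratio cannot go below 0.0571, so those ratios were compared by direction only. The limits are the 4 mice a group, the maturity markers that differ between the groups, and p-values that measure only the spread between these 8 mice.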

Other observations

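Several genes beside the receptors also differed. Gna15 lies 2173 bases from S1pr4 and encodes a G protein alpha subunit; its 4 Cxcr2-/- mice, at 36.5 to 65.0 CPM, were all above the WT mice at 20.2 to 21.9 CPM. Ncln, 1354 bases from S1pr4 on its other side, was at 79.8 ± 6.88 CPM in WT and 119 ± 24.2 in Cxcr2-/- (log2 fold change 0.58, edgeR adjusted p = 0.00304), also with no overlap. Adcy4, an adenylyl cyclase gene 562 bases from Ltb4r1, was at 12.1 ± 1.53 and 21.8 ± 11.0 CPM (0.85, edgeR adjusted p = 0.0299), with overlapping groups and a call lost in 8 of 16 alternatives.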
